A study of Mus musculus with 4 samples.

Results

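Angiopoietins and the Tie receptors were followed through the stroma of mouse long bone by 6 genes, *Angpt1*, *Angpt2*, *Angpt4*, *Tek*, *Tie1* and *Ptprb*. Their rows were found by symbol, with earlier results of these data known but no measured value in the rule, and they are 6 of the 53703 features counted. The libraries were 4 droplet-based scRNA-seq libraries of stroma from the metaphysis of femur and tibia, taken from 12-week-old mice on a C57/BL6 background. In all mice both alleles of *Lats2*, a kinase of the Hippo pathway, carried loxP sites. The 2 mutant libraries (Lats2iECKO) came from mice that also carried Cdh5(PAC)-CreERT2, a tamoxifen-inducible Cre driven by the promoter of an endothelial cadherin gene, and the 2 control libraries came from littermates without Cre. The methods give mice of both genotypes the same course of tamoxifen for 5 days at 4 to 5 weeks of age, while GEO's labels call the controls untreated. The paper calls the 2 libraries of a genotype biological replicates, while the number and the sexes of the animals in a library are not given in the sources used here, and the p-values below measure the spread between these libraries.

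The angiopoietins are secreted ligands of TIE2, the receptor tyrosine kinase encoded by *Tek* and known best from endothelial cells (ECs). ANGPT1 is the activating ligand, known to be released by cells around the vessel and to stabilise it. ANGPT2 is known to act mostly as a context-dependent antagonist, is stored by ECs and goes with vessel remodelling, and ANGPT4 is the mouse counterpart of a less studied ligand. TIE1 is a receptor without a known high-affinity ligand among the angiopoietins and modulates TIE2, and VE-PTP, the phosphatase encoded by *Ptprb*, removes phosphate from TIE2. In bone marrow, *Angpt1* is known from the *Cxcl12*- and *Lepr*-expressing stromal cells around sinusoids.

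On GRCm39, *Tek* (chr4:94627291-94763224, plus strand) and *Tie1* (chr4:118328385-118347261, minus strand) lie on the same chromosome. *Ptprb* lies at chr10:116111428-116225440 (plus strand), *Angpt1* at chr15:42288058-42540417 (minus strand) and *Angpt4* at chr2:151753127-151787257 (plus strand). *Angpt2* (chr8:18739202-18791603, minus strand) lies within *Mcph1* on the opposite strand (chr8:18645128-18858114), and the counting used the strand. Reads over exons and introns of each gene were counted together, so isoforms and splicing cannot be read from these values. The proximal promoters of the receptors are shown because *Tek* and *Tie1* fell in mutant ECs and, over all cell classes, had profiles close to each other. The sequence is RefSeq's on GRCm38.p6, 250 bases up to the annotated start, at chr4:94739039-94739288 (plus strand) for *Tek*, chr4:118489850-118490099 (minus strand) for *Tie1* and chr2:151910957-151911206 (plus strand) for *Angpt4*. Capitals mark GGAA, the core bound by ETS factors, read on either strand (TTCC on the other). The RefSeq promoter table held 3 of the 6 genes, and *Angpt1*, *Angpt2* and *Ptprb* are named only.
Tek: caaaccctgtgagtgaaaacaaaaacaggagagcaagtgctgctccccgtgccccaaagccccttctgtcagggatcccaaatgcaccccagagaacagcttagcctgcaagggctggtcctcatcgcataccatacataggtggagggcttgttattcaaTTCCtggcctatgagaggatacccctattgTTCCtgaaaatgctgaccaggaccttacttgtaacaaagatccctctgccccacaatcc
Tie1: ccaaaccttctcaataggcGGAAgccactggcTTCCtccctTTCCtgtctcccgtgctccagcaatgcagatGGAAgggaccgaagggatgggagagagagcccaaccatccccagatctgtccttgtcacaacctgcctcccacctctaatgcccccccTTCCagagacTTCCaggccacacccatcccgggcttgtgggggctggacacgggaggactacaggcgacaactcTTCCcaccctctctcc
Angpt4: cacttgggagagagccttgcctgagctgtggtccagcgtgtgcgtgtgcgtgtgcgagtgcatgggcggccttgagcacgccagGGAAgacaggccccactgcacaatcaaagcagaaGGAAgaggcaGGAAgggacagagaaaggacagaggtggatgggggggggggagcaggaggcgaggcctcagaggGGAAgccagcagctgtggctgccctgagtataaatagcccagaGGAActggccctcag
The *Tek* window held 2 such cores, the *Tie1* window 7 and the *Angpt4* window 5, beside a median of 3 over 32851 promoter windows of the same length, 93.4% of which held at least 1. TAAACA (a core of FOXO sites), GGAATG (a core of TEAD sites, which contains GGAA) and AGATAA (a core of GATA sites), each searched on both strands, had 0 matches in all 3 windows, while 12.0%, 12.6% and 9.99% of all windows held them. A match is a description of the letters in the window and not a bound site.

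The libraries held 69636600 and 78953446 counts in mutants and 83453507 and 85899079 in controls. Of the barcodes, 5749, 6703, 7606 and 7649 had at least 1000 UMIs and 800 genes, and 5119, 5887, 6813 and 6780 also passed the filters on mitochondrial and haemoglobin counts and on complexity (log10 genes over log10 UMIs above 0.8). Between 6 and 16 of them were shared between any 2 libraries. Cell classes were gated by markers that include none of the 6 genes, and levels are given in CPM, the counts of a gene scaled to the summed counts of all genes of the class in a library. The EC gate took 2860 cells, in which all 9 endothelial markers were detected, and the mural gate (pericytes and smooth muscle cells) took 1585. Bone marrow stromal cells (BMSCs), osteoblast-lineage cells (OBs), chondrocytes (CHOs) and fibroblasts (FBs) took 4461, 2058, 4736 and 1757. ECs were divided into arterial (aEC, 698 cells), bone marrow (bmEC, 519), metaphyseal (mpEC, 643) and arteriole-like cells (alEC, 446). The alEC gate keeps the study's name, and its markers include *Vwf*, *Ackr1* and *Selp*, genes also known from venules. The remaining ECs matched none of the 4 gates clearly. *CreERT2* stood at 54.2 and 48.6 CPM in mutant ECs against 0.652 and 0.845 in controls. *Lats2* stood at 91.8 and 96.7 CPM in mutant ECs against 132 and 122 in controls, a log2 fold change of −0.35 ± 0.08 (SE, adjusted p = 0.00445, edgeR's quasi-likelihood test). By subtype, *Lats2* was lower in aECs (−0.46 ± 0.13, adjusted p = 0.0299) and mpECs (−0.43 ± 0.13, adjusted p = 0.0398), while bmECs (94.4 and 98.7 CPM against 102 and 101, 0.01 ± 0.16, adjusted p = 0.975) and alECs (−0.17 ± 0.19, adjusted p = 0.702) gave no call. *CreERT2* was higher in mutants in all 4 subtypes. Reads anywhere in *Lats2* were counted, so any shortened transcripts left by the deletion would be counted too. Whether such transcripts were present was not tested.

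The 3 receptor genes were highest in ECs of control bone. *Tek* stood at 471 and 451 CPM in ECs, *Tie1* at 273 and 264 and *Ptprb* at 1612 and 1538. Against the mean of the other 5 main classes, *Tek* was higher in ECs by 7.24 ± 0.06 on the log2 scale (SE, 2 control libraries), *Tie1* by 6.83 ± 0.09 and *Ptprb* by 7.43 ± 0.06. *Tie1* was also called higher in mural cells, at 19.7 and 9.96 CPM (1.93 ± 0.29). The edgeR quasi-likelihood test called 5 of the 6 genes different in ECs, where 63.7% of all genes were called, so a call between classes is the common case and the size of the difference carries the description. *Angpt1* was highest in BMSCs, at 547 and 531 CPM, followed by mural cells at 149 and 112. ECs, FBs, OBs and CHOs held 7.8 to 17.7 CPM of *Angpt1* and overlapped. BMSCs exceeded the mean of the other classes in *Angpt1* by 4.42 ± 0.07 on the log2 scale. In BMSCs 6 of 6 genes were called (62.7% of all genes), with *Tek*, *Tie1* and *Ptprb* below the other classes.

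*Angpt2* had another order in controls. Mural cells were highest at 80.5 and 83.6 CPM, BMSCs followed at 39.8 and 39.9, and ECs at 22.6 and 12.2 overlapped OBs at 14.3 to 15.6. FBs (2.14 and 2.16) and CHOs (1.36 and 1.71) were lowest. In mural cells the excess of *Angpt2* over the other classes was 3.13 ± 0.16 on the log2 scale, and 5 of 6 genes were called (37.8% of all genes). In ECs it was 0.33 ± 0.17 (adjusted p = 0.0901, edgeR's quasi-likelihood test), so control ECs were not shown to hold more *Angpt2* than the average class. *Angpt4* was highest in BMSCs (38.8 and 48.2 CPM) and OBs (26 and 20.9), and in OBs all 6 genes were called (56.1% of all genes).

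**Figure D1:**
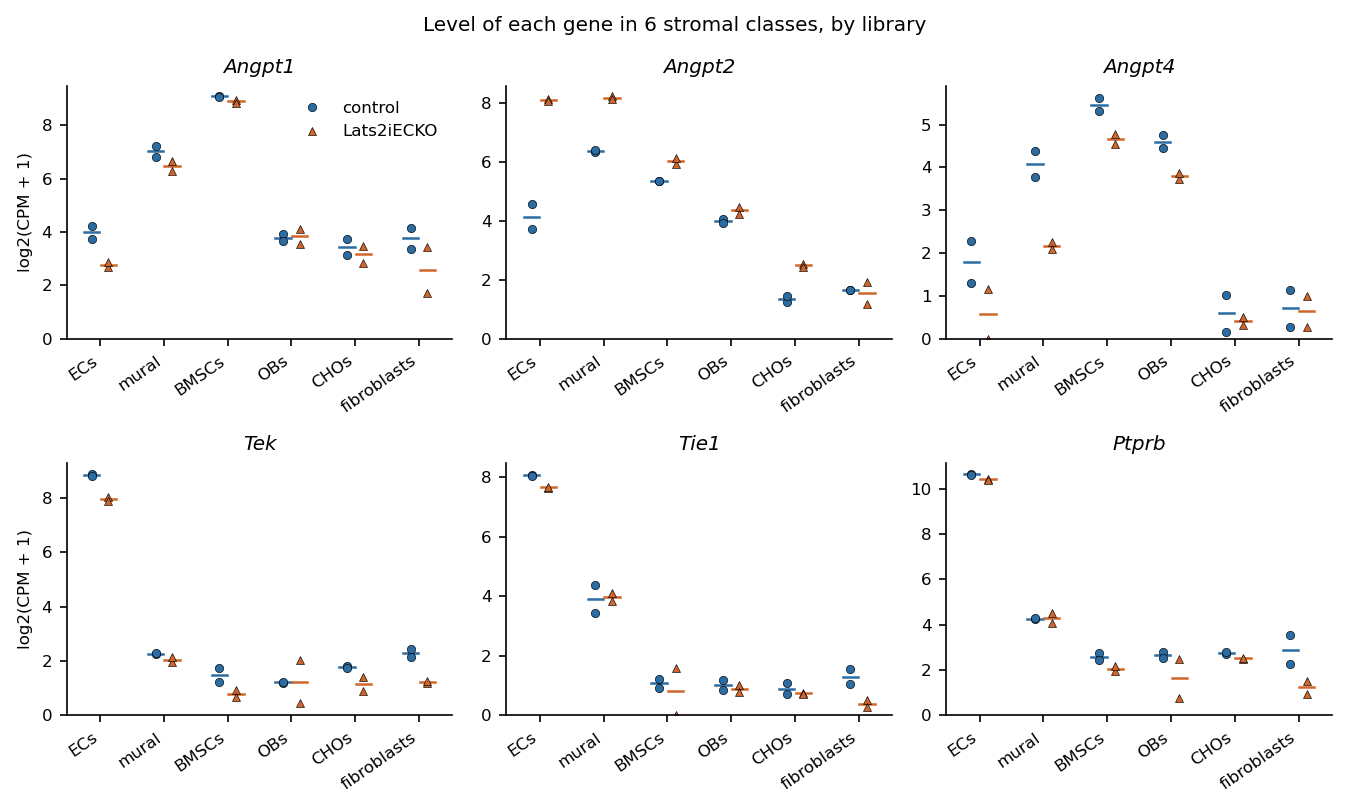
Level of each gene, as log2(CPM + 1), in each of the 6 main cell classes, with 1 point per library, a line at the mean of each genotype and the genotype shown by colour.  The receptor genes sit highest in ECs and *Angpt1* in BMSCs, while *Angpt2* of mutants (264 to 297 CPM) lies above that of controls (12.2 to 83.6 CPM) in both ECs and mural cells.

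The subtypes of control ECs differed in the receptors and in *Angpt2*. *Angpt2* was at 93.9 and 50.6 CPM in alECs, at 8.9 to 11.9 in bmECs and at 9.23 to 11.5 in mpECs. In aECs it had 0 counts in the first control library, which allows a level of up to 2.33 CPM (3 counts), and 0.831 CPM in the second. Against the mean of bmECs and mpECs, with aECs left out because of these counts (an alternative added after seeing the data), alECs were higher by 2.91 ± 0.28 on the log2 scale, with 2 of 5 genes called where 23.3% of all genes were. Set against the mean of the other 3 subtypes, *Tek* was lower in aECs (−0.53 ± 0.09) and higher in bmECs (0.36 ± 0.09), *Tie1* was higher in mpECs (0.50 ± 0.09) and lower in bmECs (−0.35 ± 0.09), and *Ptprb* was higher in aECs (0.65 ± 0.05) and lower in bmECs (−0.36 ± 0.05) and mpECs (−0.39 ± 0.05). *Ptprb* ranged from a mean of 1356 CPM in bmECs to 2314 in aECs, and *Tek* from 353 in aECs to 557 in bmECs. Of the 5 genes tested, 3 were called in aECs (24.0% of all genes), 3 in bmECs (29.0%), 2 in mpECs (17.2%) and 1 in alECs (19.9%).

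Within mural cells of controls, cells gated by pericyte markers (*Rgs5*, *Kcnj8*, *Abcc9* and others) were compared with cells gated by contractile markers (*Myh11*, *Cnn1*, *Myocd* and others). The pericyte gate was higher in *Angpt1* by 1.31 ± 0.17, in *Angpt2* by 1.13 ± 0.20 and in *Tie1* by 4.81 ± 0.59 on the log2 scale (*Tie1* at 65.0 and 34.6 CPM against 2.78 and 0), and it differed in *Angpt4* by −4.23 ± 0.81, although *Angpt4* had at most 1 count in the pericyte gate of either control library. All 4 genes tested were called there (27.0% of all genes). *Tek* and *Ptprb*, which were not tested, stood at 12.3 to 12.8 and 1.23 to 55.7 CPM in the pericyte gate. The contractile gate held 0 to 0.928 and 3.25 to 3.68 CPM of them. Any part of EC transcripts in the value of *Tie1* was not tested. Within BMSCs of controls, cells gated by adipogenic markers such as *Adipoq* and *Lepr* held more *Angpt1*, at 646 to 660 CPM against 319 to 323 in cells gated by osteogenic markers such as *Postn* and *Alpl*. The osteogenic gate differed from the adipogenic gate by −1.0 in *Angpt1*, −2.16 in *Angpt2* and 2.64 in *Angpt4* on the log2 scale, with 4 of 4 genes called (21.0% of all genes).

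In mutants *Angpt2* was higher in ECs than in controls, and *Tek* was lower. *Angpt2* stood at 280 and 264 CPM in the mutant libraries and at 22.6 and 12.2 in the controls. Both mutants lay far above both controls, 16.5-fold on the fitted scale (log2 fold change 4.04 ± 0.17 SE, adjusted p = 1.02e-07, edgeR's quasi-likelihood test). *Tek* stood at 261 and 237 CPM in mutant ECs against 471 and 451 in controls, a log2 fold change of −0.81 ± 0.07 (adjusted p = 9.27e-06), that is 1.75-fold lower. *Tie1* stood at 199 and 206 CPM against 273 and 264 (−0.32 ± 0.07, adjusted p = 0.0033). Groups did not overlap for any of these 3 genes. With 2 libraries per genotype such separation alone carries little, and the share of all genes that separate is not given here. All 5 of the genes tested were called in ECs, 1 up and 4 down, where 36.7% of all genes were called.

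The other calls in ECs were weaker. *Ptprb* stood at 1366 and 1337 CPM in mutants against 1612 and 1538 in controls, a log2 fold change of −0.14 ± 0.05 (adjusted p = 0.0469, edgeR's quasi-likelihood test). It lost the call in 10 alternatives, among them those without either mutant library or without control 1 (adjusted p = 0.143 to 0.224). *Angpt1* stood at 5.4 and 6.36 CPM against 12.4 and 17.7 (−1.25 ± 0.23, adjusted p = 0.00182), where free RNA alone gives an expected 2.2 to 4.9 CPM, and the value was 0.16 with called doublets left out (adjusted p = 0.733). *Angpt4* was not tested. It had 0 counts in ECs of mutant 1, which allows up to 0.578 CPM (3 counts), with 1.24 CPM in mutant 2 and 1.47 and 3.89 in controls. The summed markers of the bmEC gate moved with genotype in ECs (703 to 820 CPM in mutants, 2069 to 2217 in controls), those of alECs were higher in mutants (872 to 945 against 549 to 582), and those of mural cells were lower (336 to 358 against 528 to 585). The BMSC list was lower too (1298 to 1357 against 1635 to 1715), while the list of adipogenic BMSC markers was higher (417 to 430 against 231 to 235), as was the erythroid list (413 to 473 against 190 to 212). The adipogenic list shares *Adipoq*, *Lepr* and *Il7* with the BMSC list and adds *Esm1* and *Lpl*. The subtype values below, and those set to the control subtype mix, bear on the EC lists, and the part of the other lists was not tested.

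**Figure D2:**
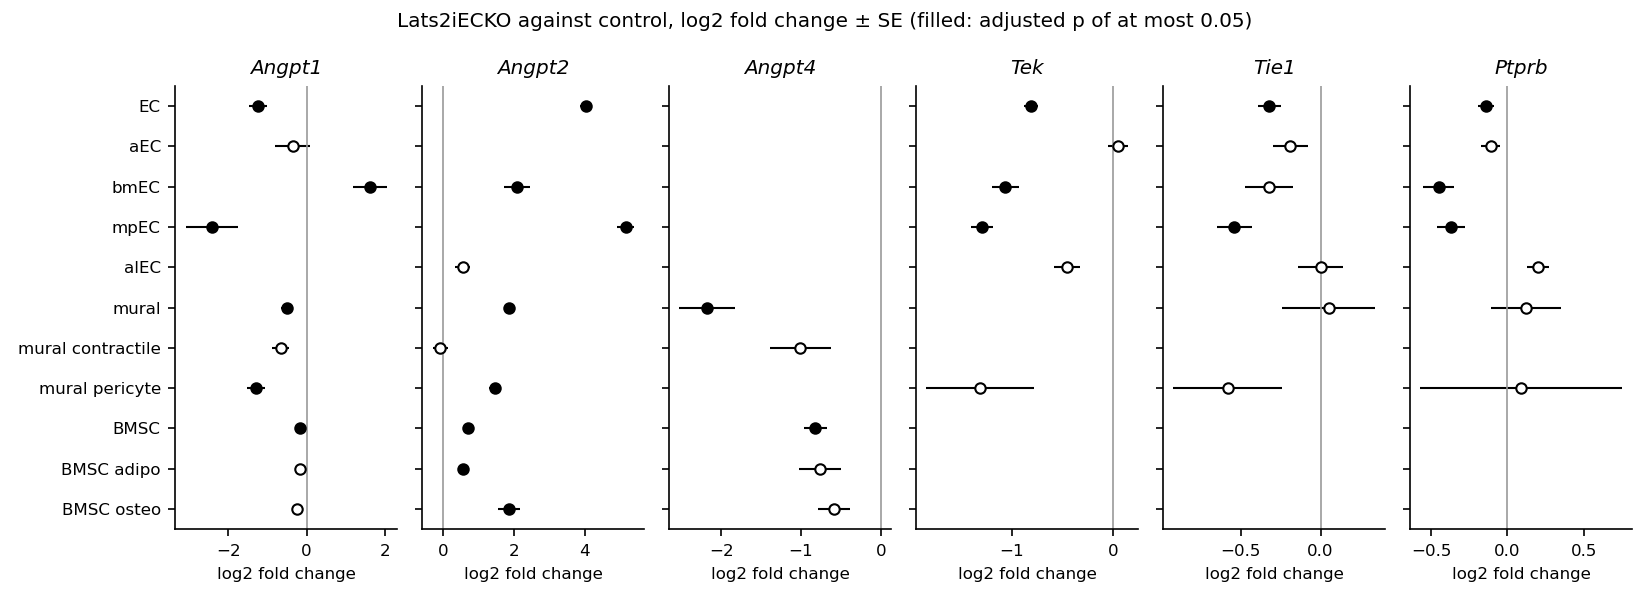
Log2 fold change of mutants over controls for each gene in each class, in classes where the mean level of either genotype was 10 CPM or more. Bars are approximate standard errors derived from edgeR's quasi-likelihood test, and filled points passed an adjusted p of 0.05. *Angpt2* is far to the right of 0 in ECs (4.04) and mpECs (5.15), and *Tek* lies left of 0 in bmECs (−1.06) and mpECs (−1.29) but near 0 in aECs (0.05).

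The rise of *Angpt2* was largest in mpECs, the capillary cells of the metaphysis, among the subtypes tested. It stood at 280 and 409 CPM in mutant mpECs against 9.23 and 11.5 in controls, a log2 fold change of 5.15 ± 0.24 (adjusted p = 6.37e-06, edgeR's quasi-likelihood test). In mpEC clusters from Leiden clustering, which held 61 and 72 mutant and 250 and 209 control cells, it stood at 86.9 and 129 CPM against 7.53 and 8.48 (3.81, adjusted p = 9.08e-08), so the size of the rise depended on how cells were assigned, and 405 of the 643 gated mpECs fell in those clusters. In gated mpECs the list of adipogenic BMSCs (455 to 601 CPM against 120 to 244) was higher in mutants as well. So were those of progenitors (101 to 129 against 44.1 to 58.9) and cycling cells (165 to 188 against 73.3 to 84.4). The part of these lists was not tested. The adipogenic list holds *Esm1* and *Lpl*, which are not in the BMSC list, and values of its single genes are not given here. In mutant bmECs *Angpt2* stood at 33.1 and 49.1 CPM against 11.9 and 8.9 (2.09 ± 0.36, adjusted p = 0.00174), a call lost with a stricter gate (1.35, adjusted p = 0.101). In alECs, the highest of the control subtypes, the values were 115 and 96.4 CPM against 93.9 and 50.6 (0.56 ± 0.22, adjusted p = 0.183), and the groups came close without overlap. That call was gained without control 1 (1.10, adjusted p = 0.00311). In aECs *Angpt2* stood at 9.53 and 5.14 CPM in mutants (11 and 7 counts) above 0 and 0.831 in controls, and was below the filter on low counts and not tested. Free RNA made up 2.27 and 5.35% of the counts of these mutant aECs and itself held 62.4 and 71.2 CPM of *Angpt2*. No rise is read from these aEC values. The ECs that matched no subtype gate clearly held the highest levels, 749 and 609 CPM in mutants against 67.6 and 14.2 in controls, and were not tested.

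*Tek* fell in the same 2 subtypes in which *Angpt2* was called. In mpECs it stood at 186 and 160 CPM in mutants against 473 and 423 in controls (log2 fold change −1.29 ± 0.11, adjusted p = 0.000111, edgeR's quasi-likelihood test). In bmECs it stood at 271 and 231 CPM against 581 and 533 (−1.06 ± 0.13, adjusted p = 0.000118). Arterial ECs held 361 and 322 CPM of *Tek* against 343 and 363, with overlapping groups and a 95% interval of the log2 fold change from −0.17 to 0.26. In alECs *Tek* stood at 371 and 342 CPM against 437 and 571 (−0.45 ± 0.13, adjusted p = 0.0635), and the call was gained in 7 alternatives, among them that without control 1 (−0.63, adjusted p = 0.000437). Unassigned ECs held 153 and 135 CPM of *Tek* in mutants against 475 and 380.

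*Tie1* and *Ptprb* fell by less, with calls for *Tie1* in mpECs and for *Ptprb* in mpECs and bmECs. *Tie1* stood at 200 and 239 CPM in mutant mpECs against 340 and 339 (−0.54 ± 0.11, adjusted p = 0.00821, edgeR's quasi-likelihood test), a call lost without control 1 (adjusted p = 0.0601), and was not called in bmECs (−0.32 ± 0.15, adjusted p = 0.19). *Ptprb* stood at 1009 and 861 CPM in mutant bmECs against 1396 and 1315 (−0.45 ± 0.10, adjusted p = 0.0112), and at 1009 and 1012 in mutant mpECs against 1416 and 1360 (−0.37 ± 0.09, adjusted p = 0.0122). The call was lost in 3 alternatives in bmECs and in 2 in mpECs. That without control 1 was among them in both, and that without control 2 in mpECs. Without any 1 library the log2 fold changes were −0.55 to −0.36 in bmECs and −0.41 to −0.34 in mpECs. In alECs *Ptprb* stood at 1807 and 1803 CPM against 1588 and 1652 (0.20 ± 0.07, adjusted p = 0.147). *Angpt1* had calls of opposite sign at low levels. It stood at 18.6 and 25.4 CPM in mutant bmECs against 10 and 5.28 (1.61 ± 0.44, adjusted p = 0.033), and at 1.58 and 4.16 in mutant mpECs against 8.71 and 27.3 (−2.42 ± 0.67, adjusted p = 0.0276). The first was lost without mutant 2, control 1 or control 2 (adjusted p = 0.251 to 0.398), and the second without control 2 (0.259) and with free RNA subtracted (0.0652), while DESeq2 gave neither an adjusted p. In bmECs the BMSC markers (1203 to 1496 CPM in mutants, 584 to 709 in controls) and the adipogenic BMSC markers (394 to 431 against 165 to 167) were higher in mutants too, unlike the BMSC list in all ECs, and their part in the value of *Angpt1* was not tested. In Leiden mpEC clusters *Angpt1* stood at 2.59 and 0 CPM in mutants against 2.01 and 2.61 in controls, so the fall in gated mpECs was not seen there. Unassigned ECs of that clustering held 7.49 and 11.2 CPM against 94.3 and 87.5.

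Of the genes tested, 5 of 5 were called in mpECs (23.7% of all genes) and 4 of 5 in bmECs (9.68%). In aECs edgeR's quasi-likelihood test called 0 of 4 (14.6% of all genes), with 0 at an unadjusted p under 0.05. In alECs it called 0 of 4 (4.6% of all genes), with 3 at an unadjusted p under 0.05. DESeq2, run as an alternative, called 0 of 4 in aECs and 0 of 4 in alECs.

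**Figure D3:**
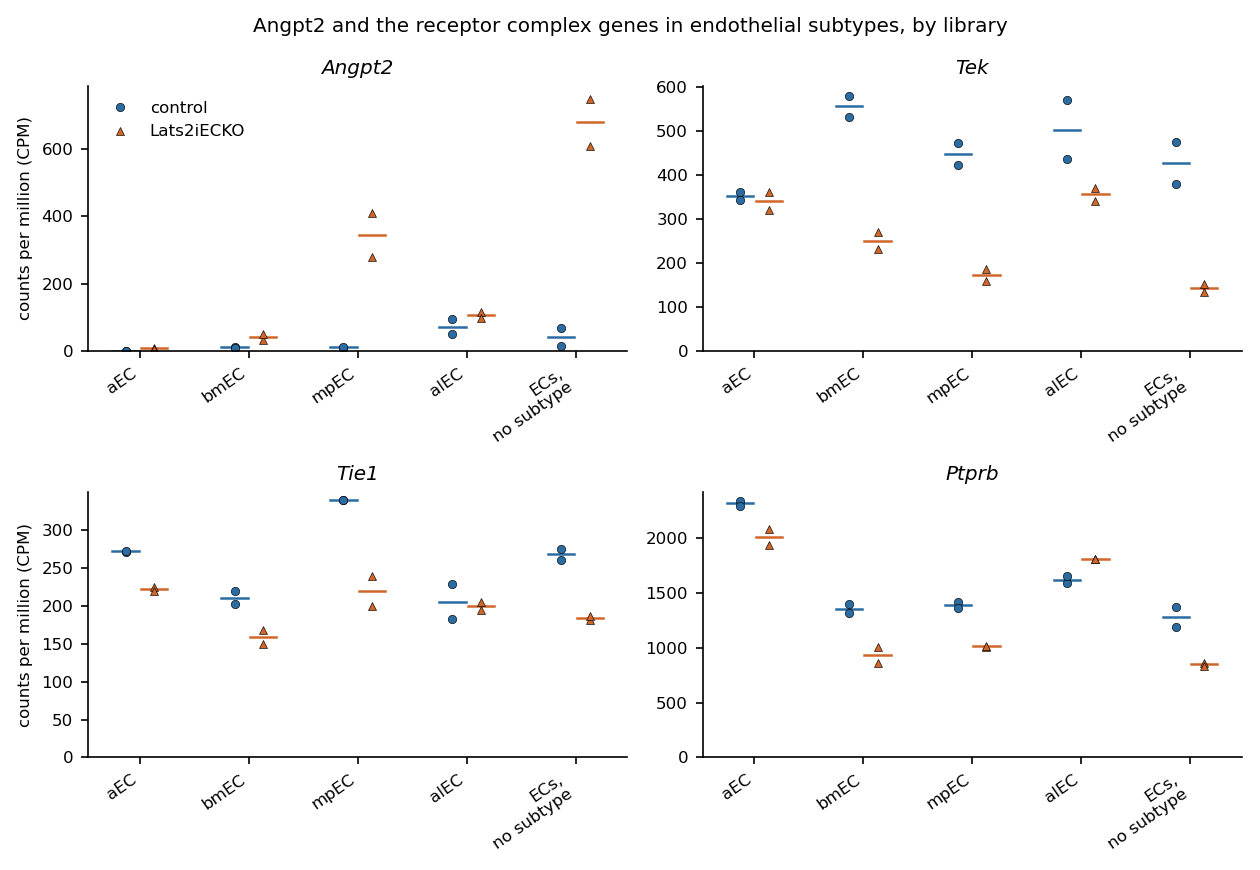
Level (CPM) of *Angpt2*, *Tek*, *Tie1* and *Ptprb* in each EC subtype and in unassigned ECs, with 1 point per library, a line at the mean and the genotype shown by colour. Mutant mpECs (280 and 409 CPM) and unassigned ECs (749 and 609 CPM) stand above their controls in *Angpt2*, while arterial ECs of both genotypes overlap in *Tek* (322 to 363 CPM).

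Whether the effect of genotype differed between subtypes was tested in 1 edgeR fit over the subtype sums, with the library as a block and each subtype set against the mean of the other 3. The effect on *Tek* was higher in aECs by 0.99 on the log2 scale (adjusted p = 0.000711), and differed in mpECs by −0.81 (adjusted p = 0.002), a call lost without control 1 (−0.66, adjusted p = 0.0796). In alECs the effect on *Angpt2* differed by −3.12 (adjusted p = 0.0019), against a mean that includes the near-zero aECs, and that on *Ptprb* by 0.53 (adjusted p = 0.003). Both were lost without control 1 (adjusted p = 0.205 and 0.207), and that on *Ptprb* also without control 2 (0.0538). With aECs left out the differences in alECs were −3.0 ± 0.36 for *Angpt2* (adjusted p = 0.000394) and 0.63 ± 0.10 for *Ptprb* (adjusted p = 0.00419), and without control 1 neither passed (adjusted p = 0.0786 and 0.182). *Ptprb* did not pass without control 2 either (0.0608). *Tek* was then called as well (0.75 ± 0.16, adjusted p = 0.0251), though not without mutant 2 or control 1 (adjusted p = 0.0527 and 0.41), so 3 of 5 genes were called where 1.65% of all genes were. The excess of *Angpt2* in mpECs was 2.94 and did not pass (adjusted p = 0.18). *Angpt1* differed in bmECs by 3.24 (adjusted p = 0.041), at the low levels and beside the higher BMSC markers given above, and was lost without either mutant library or control 2 (adjusted p = 0.128 to 0.315). Of 5 genes tested, 1 was called in aECs (1.14% of all genes), 1 in bmECs (0.877%), 1 in mpECs (4.09%) and 2 in alECs (1.34%). Over all 4 subtypes the count of calls was 5, and it was 2 without control 1 and 3 without control 2.

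Because bmECs made up 9.16 and 8.52% of mutant ECs against 23.4 and 26.5% of control ECs, levels in ECs were also averaged with the subtype shares of the controls, an alternative added after seeing the data. The ratio of mutants to controls was then 11.5 for *Angpt2*, against 15.6 as measured, and 0.541 for *Tek*, against 0.54 as measured. *Tie1* gave 0.74 against 0.754 and *Ptprb* 0.798 against 0.858. These 4 ratios therefore kept their direction at a fixed mix of the gates. Unassigned ECs entered as a group of their own. A change of mix within that group or within a gate was not held fixed.

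The rise of *Angpt2* was also seen as a share of cells. After thinning to 2000 UMIs per cell, 15.7 and 15.7% of mutant ECs held an *Angpt2* UMI against 2.92 and 1.18% of control ECs (exact intervals of 12.6 to 19.1 and 13.0 to 18.8% against 1.86 to 4.35 and 0.54 to 2.22%). Thinning left out 18 and 32 mutant ECs and 48 and 56 control ECs as too shallow, and without it the shares were 29.3 and 29.0% against 6.7 and 4.88%. Fibroblasts, taken as cells that should lack the gene, gave 0.216 to 1.07% after thinning, at median depths of 8221 to 9588 UMIs against 5376 to 6873 in ECs. In the controls themselves fibroblasts gave 0.983 and 0.216%, below the share of ECs of the same library. In mutant mpECs the thinned share was 18.3 and 28.7% against 1.48 and 1.52%, and in mutant unassigned ECs 32.8 and 33.3% against 2.36% in control 1 and 0 of 107 cells in control 2, which allows up to 2.8%. *Tek* was found in 40.2 and 37.2% of thinned mutant ECs against 56.7 and 53.8% of control ECs, with 0 to 0.649% in fibroblasts.

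Within a library, ECs with an *Angpt2* UMI after thinning held less *Tek* than ECs without one. In mutant 1 the levels were 139 CPM in 81 cells and 290 CPM in 436 cells, and in mutant 2 they were 122 CPM in 100 cells and 263 CPM in 537 cells. In controls they were 264 against 479 CPM (23 and 765 cells) and 276 against 454 CPM (9 and 755 cells). *Ptprb* gave 866 and 937 CPM with *Angpt2* in mutants against 1485 and 1432 without. In mutants, unassigned ECs made up 50.6 and 48.0% of the cells with *Angpt2* and 19.3 and 17.9% of those without, and the cells with *Angpt2* were deeper (medians of 8285 and 8404 UMIs against 6870 and 6655). The part of subtype and depth in this difference was not tested.

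*Angpt2* was higher in mural cells of mutants too, a class in which the *Cdh5* promoter is not known to act. It stood at 297 and 277 CPM against 80.5 and 83.6 in controls, a log2 fold change of 1.86 ± 0.10 (adjusted p = 6.19e-09, edgeR's quasi-likelihood test) with no overlap. *Angpt4* stood at 3.75 and 3.25 CPM against 12.7 and 19.9 (−2.17 ± 0.35, adjusted p = 0.00022). *Angpt1* stood at 76.4 and 100 CPM against 149 and 112 (−0.50 ± 0.15, adjusted p = 0.0168), a call lost without control 1 (−0.29, adjusted p = 0.338), with DESeq2, with called doublets left out and in Leiden clusters. Of 5 genes tested, 3 were called in mural cells (29.8% of all genes).

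The mural gate itself changed with genotype. Contractile cells made up 24.4 and 24.0% of mutant mural cells against 61.5 and 59.8% of control ones, and the 8 mural markers, all detected, summed to 10891 to 11132 CPM in mutants and 20675 to 21468 in controls. Other lists were higher in mutant mural cells, those of adipogenic BMSCs at 1653 to 1985 CPM against 546 to 581, erythroid cells at 441 to 500 against 145 to 179 and leukocytes at 132 to 153 against 17.9 to 25.7. The BMSC list was lower there (689 to 808 CPM against 1629 to 1754), as was the EC list (158 to 160 against 200 to 205), and the part of these lists in the values of *Angpt1* and *Angpt2* was not tested. In mutants the adipogenic sum exceeded that of the whole BMSC list, so part of it came from *Esm1* or *Lpl*, which are not in the BMSC list. At the control mix of mural subtypes the ratio of mutants to controls was 2.07 for *Angpt2*, against 3.5 as measured, 0.517 for *Angpt1*, against 0.675, and 0.428 for *Angpt4*, against 0.215. In the pericyte gate (169, 186, 68 and 67 cells) *Angpt2* stood at 352 and 353 CPM against 125 and 158 (1.46 ± 0.16, adjusted p = 3.83e-05, edgeR's quasi-likelihood test) and *Angpt1* at 61.1 and 107 against 253 and 210 (−1.30 ± 0.23, adjusted p = 0.0013). These 2 of 5 genes were called (18.3% of all genes). The 5 pericyte markers themselves summed to 8583 to 9614 CPM in mutants against 19258 to 20112 in controls. In mutant cells of the pericyte gate the BMSC list was lower too (640 to 745 CPM against 1725 to 1816). The adipogenic BMSC list was higher there (1613 to 1931 against 766 to 923), again above the whole BMSC sum in mutants. The part of both lists in the values of *Angpt1* and *Angpt2* was not tested.

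In the contractile gate *Angpt2* stood at 61.5 and 41.9 CPM in mutants against 52.9 and 58.0, with overlapping groups and a 95% interval of the log2 fold change from −0.53 to 0.39. The test called 0 of 3 genes there (edgeR's quasi-likelihood test, 7.39% of all genes), with 2 at an unadjusted p under 0.05, and DESeq2 called 0 of the 2 to which it gave an adjusted p. *Angpt1* stood at 56.5 and 42.9 CPM against 95.6 and 65.3 in that gate (−0.66 ± 0.22, adjusted p = 0.0731). It passed in 7 alternatives, among them those without mutant 1 or control 2 (−0.89 to −0.37 without any 1 library). The effect on *Angpt2* was higher in the pericyte gate than in the contractile gate by 1.54 ± 0.27 (adjusted p = 0.00157), with 1 of 6 genes called (5.63% of all genes). The pericyte result depended on how cells were assigned. In Leiden clusters named from the same markers, *Angpt2* stood at 121 and 98.6 CPM in mutant pericyte clusters against 137 and 156 in controls (−0.35, adjusted p = 0.272). Contractile clusters stood at 47.2 and 34.4 CPM against 49.4 and 47.1, so no named mural cluster held more *Angpt2* in mutants. Mural clusters that took no subtype name held 255 and 318 mutant cells but 15 and 22 control cells, with *Angpt2* at 461 and 436 CPM against 57.3 and 93.9. The paper reports an enrichment of *Myh11*-negative cells among mutant smooth muscle cells and calls them likely myofibroblasts, and their part in these clusters was not tested.

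**Figure D4:**
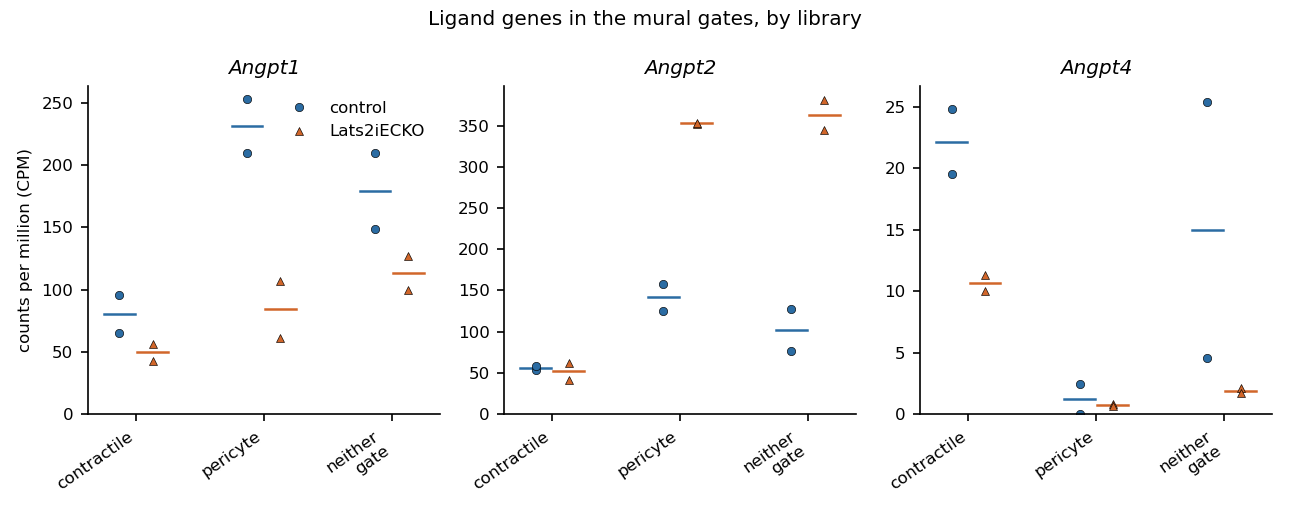
Level (CPM) of *Angpt1*, *Angpt2* and *Angpt4* in the contractile, pericyte and unassigned mural cells, with 1 point per library, a line at the mean and the genotype shown by colour. *Angpt2* of mutants lies above controls in the pericyte gate (352 and 353 against 125 and 158 CPM), while in the contractile gate the genotypes overlap (41.9 to 61.5 against 52.9 to 58.0 CPM).

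BMSCs, the main source of *Angpt1* in these libraries, differed less between genotypes. *Angpt1* stood at 492 and 455 CPM in mutant BMSCs against 547 and 531 in controls, a log2 fold change of −0.17 ± 0.06 (adjusted p = 0.0366, edgeR's quasi-likelihood test), and the call was lost in 6 alternatives, among them those without mutant 2, control 1 or control 2 (adjusted p = 0.0818 to 0.308). *Angpt2* stood at 59.8 and 68.2 CPM against 39.8 and 39.9 (0.71 ± 0.09, adjusted p = 6.26e-06). *Angpt4* stood at 26.5 and 22.4 CPM against 38.8 and 48.2 (−0.82 ± 0.14, adjusted p = 0.000162). The osteogenic gate, in which *Angpt4* was highest, held 60 of 435 and 76 of 553 mutant BMSCs against 330 of 1758 and 353 of 1715 control BMSCs, and within the gates *Angpt4* was not called (−0.76 ± 0.26 in the adipogenic gate, adjusted p = 0.0681, and −0.59 ± 0.20 in the osteogenic gate, adjusted p = 0.138). Of 4 genes tested, 3 were called (18.4% of all genes). Thinned to 2000 UMIs, 52.4 and 52.6% of mutant BMSCs held an *Angpt1* UMI against 56.7 and 56.6% of control BMSCs.

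Over all BMSCs the lists of erythroid cells (646 to 714 CPM in mutants against 254 to 319 in controls), mpECs (486 to 536 against 336 to 372), ECs (38.4 to 42.1 against 29.0 to 32.2) and CHOs (662 to 892 against 416 to 417) were higher in mutants, and their part in the values of *Angpt2* was not tested. Both BMSC gates showed the higher *Angpt2*. In the adipogenic gate it stood at 68.0 and 76.1 CPM against 48.5 and 51.6 (0.56 ± 0.12, adjusted p = 0.00365, edgeR's quasi-likelihood test), with 1 of 4 genes called (10.0% of all genes). The call was lost in 5 alternatives, among them those without mutant 2, control 1 or control 2 (0.47 to 0.63 without any 1 library). DESeq2 called 0 of the 3 genes to which it gave an adjusted p in that gate. In the osteogenic gate it stood at 46.0 and 33.9 CPM against 10.9 and 11.1 (1.87 ± 0.31, adjusted p = 0.00193), with 1 of 3 called (2.46% of all genes), and a stricter gate ended the call (1.17, adjusted p = 0.2). In OBs *Angpt4* fell from 26 and 20.9 CPM in controls to 12.2 and 13.7 (−0.82 ± 0.20, adjusted p = 0.0179), the only 1 of 5 genes called (7.84% of all genes), and it did not pass without control 1 (0.0869), with DESeq2 (0.183), with a stricter gate (0.386) or with free RNA subtracted (0.068). In mutant OBs the BMSC list was lower (414 to 620 CPM against 745 to 751), as was the osteogenic BMSC list (1107 to 1158 against 1328 to 1340), while the mural list (179 to 214 against 84.9 to 98.8) and the erythroid list (351 to 415 against 121 to 126) were higher, and their part in the values of *Angpt4* was not tested.

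Chondrocytes and fibroblasts held little of the 6 genes. In CHOs 2 of 5 genes were called (43.1% of all genes), with *Angpt2* at 4.75 and 4.45 CPM in mutants against 1.36 and 1.71, where the free RNA of each library gives an expected 3.10 and 4.91 against 1.04 and 0.989. These levels are near that background and are not read as expression. In FBs edgeR's quasi-likelihood test called 0 of 4 genes (3.76% of all genes), with 2 at an unadjusted p under 0.05, and DESeq2 gave no adjusted p for any of them.

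The cells that held the ligand transcripts therefore differed between genotypes. Of all *Angpt2* counts in the 6 main classes, ECs held 52.1 and 51.8% in mutants against 14.3 and 7.85% in controls, and mural cells held 37.0 and 36.3% against 14.3 and 16.5%. In controls BMSCs held 46.1 and 48.2% and OBs 22.1 and 23.1%, which fell to 5.99 and 7.16% and to 1.51 and 1.55% in mutants. Among mutant ECs, unassigned cells held 65.8 and 49.3% of the *Angpt2* counts and mpECs 24.4 and 40.4%. *Angpt1* counts lay mostly in BMSCs in both genotypes, 72.6 and 69.4% in mutants and 88.8 and 89.4% in controls, with mural cells holding 14.0 and 19.1% against 3.71 and 3.09%. BMSCs made up 13.5 and 14.9% of the gated cells in mutants and 33.6 and 32.4% in controls, and cell shares after dissociation and bead depletion are not shares in the tissue.

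Summed over the 6 main classes, *Angpt1* stood at 50.7 and 54.0 CPM in mutants against 129 and 118 in controls, although its level within BMSCs differed by 1.12-fold. *Angpt2* stood at 74.7 and 78.5 CPM against 18.0 and 16.4, and *Angpt4* at 3.21 and 3.54 against 15.5 and 16.5. *Tek* stood at 37.3 and 37.8 CPM against 55.3 and 49.7. *Tie1* (29.6 and 33.6 against 32.7 and 29.0) overlapped between genotypes. *Ptprb* stood at 194 and 211 against 189 and 168. These sums join the level per cell with the number of cells of each class and were not tested.

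**Figure D5:**
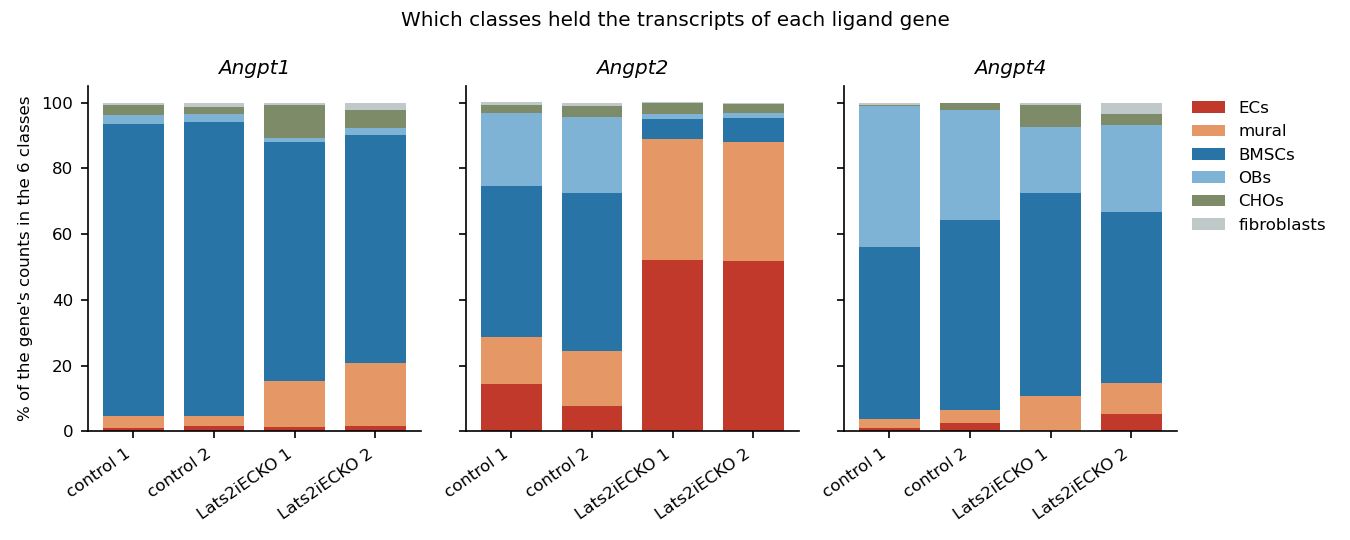
Share of the counts of *Angpt1*, *Angpt2* and *Angpt4* (percent of the counts in the 6 main classes) held by each class, with 1 stacked bar per library and a colour per class. *Angpt2* counts lie mostly in BMSCs (46.1 and 48.2%) and OBs in controls and in ECs (52.1 and 51.8%) and mural cells in mutants, while *Angpt1* counts lie mostly in BMSCs in all 4 libraries.

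The genes with the profile closest to each member were taken over 76 sums (class by library, 16199 genes, Pearson's r of log2(CPM + 1)), which share libraries and cell composition and are given as a description. The closest to *Tek* were *Rasip1* (0.964), *Ccm2l* (0.960), *Unc45b* (0.955), *Zfp366* (0.953) and *She* (0.951), and the closest to *Tie1* were *Flt1*, a VEGF receptor (0.966), *Sox18*, an endothelial transcription factor (0.942), *Rasip1* (0.940), *F11r* (0.937) and *Emcn* (0.934). *Ptprb* was closest to *She* (0.965), *Zfp366* (0.963), *Rasip1* (0.955), *Unc45b* (0.954) and *Gbp8* (0.954). *Angpt1* was closest to *P2ry14* (0.874), *Slc24a3* (0.864), *Runx1* (0.847), *Cebpa* (0.840) and *Zeb2* (0.833).

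*Angpt2* had no close partner. Its highest values were *Gm28055* (0.682), *Gnb4* (0.681), *Spry4* (0.676) and *Col4a1*, a basement membrane collagen (0.673). *Angpt4* was closest to *Tnfrsf19* (0.840), *Gm19299* (0.790), *2610300M13Rik* (0.782), *Gm31520* (0.767) and *Tnc* (0.766). Among the 6 genes themselves the receptor pairs gave 0.915 (*Tek* and *Tie1*), 0.943 (*Tek* and *Ptprb*) and 0.920 (*Tie1* and *Ptprb*), while *Angpt1* and *Angpt2* gave 0.113.

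Other genes of the pathway were counted from fixed lists, in ECs unless another class is named. In ECs 36.7% of all genes were called and the median log2 fold change of all genes was near 0. Of 34 genes of the Tie pathway other than the members, 31 were tested, 8 rose and 9 fell, with a median log2 fold change of 0.02. *Cdh5*, which is on this list, is also a marker of the EC gate. *Svep1*, which encodes an extracellular protein reported to bind TIE1, stood at 2.7 and 3.72 CPM in mutants against 11.9 and 15 (−1.96 ± 0.26). *Grb14*, an adaptor gene, stood at 3.28 and 4.19 against 13.0 and 14.9 (−1.80 ± 0.23). Both levels are low, and the part of free RNA and doublets in them is not given here. By subtype *Svep1* was called in aECs (−7.06 ± 0.97) but not in mpECs (−1.99 ± 0.68) or bmECs (0.98 ± 0.42). *Grb14* was called in mpECs (−2.0 ± 0.46) but not in bmECs (−0.83 ± 0.49). *Ptk2*, which encodes focal adhesion kinase, stood at 263 and 272 CPM against 483 and 447 (−0.71 ± 0.07), and *Pik3r1*, a regulatory subunit of PI3K, at 114 and 108 against 194 and 187 (−0.70 ± 0.07). *Itgb3*, an integrin subunit, stood at 14.3 and 16.6 CPM against 10.6 and 10.5 (0.64 ± 0.17), and *Klf2*, a flow-responsive factor, at 1065 and 1012 against 748 and 790 (0.52 ± 0.06).

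FOXO1 is the transcription factor held inactive by TIE2 signalling through AKT, and *Angpt2* is a known target. Of 16 other genes listed as FOXO targets, 16 were tested, 8 rose and 3 fell, with a median log2 fold change of 0.30. *Fbxo32*, a ubiquitin ligase gene, stood at 31.4 and 25.5 CPM against 15 and 13.7 (1.06 ± 0.15), *Gadd45a*, a stress-response gene, at 32.6 and 24.4 against 14.3 and 14.9 (1.03 ± 0.16), *Klf6* at 313 and 304 against 210 and 202 (0.67 ± 0.07) and *Cited2* at 83.7 and 79.0 against 63.7 and 57.6 (0.50 ± 0.08). *Irs2*, an insulin receptor substrate, was at low levels, 5.78 and 5.28 CPM against 0.814 and 1.69 (2.21 ± 0.38). *Insr*, the insulin receptor gene and also a listed target, went the other way, at 238 and 245 CPM against 589 and 599 (−1.21 ± 0.06). In mpECs 1 of 14 tested genes of this list rose and 3 fell, that is 28.6% called beside 23.7% of all genes, and in bmECs 3 of 14 rose and 1 fell, beside 9.68% of all genes. In aECs 2 of 14 rose and 1 fell (14.6% of all genes), and in alECs 2 of 13 rose and 1 fell (4.6% of all genes). Calls on this list were not confined to ECs, and all 16 genes were tested in each of the other main classes. In CHOs 11 rose and 2 fell (43.1% of all genes called), in OBs 6 and 0 (7.84%) and in BMSCs 6 and 1 (18.4%). Mural cells gave 6 and 4 (29.8%) and FBs 1 and 0 (3.76%).

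Of 12 genes listed as regulators of *Angpt2*, 11 were tested, 4 rose and 3 fell, with a median log2 fold change of 0.00. *Srf*, the serum response factor gene, stood at 11 and 10.1 CPM against 6.35 and 6.25 (0.82 ± 0.21) and *Elf1*, an ETS factor gene, at 251 and 264 against 187 and 194 (0.52 ± 0.07). *Ets1* stood at 415 and 384 CPM against 749 and 697 (−0.77 ± 0.06). The genes of hypoxia-inducible factors went both ways, with *Epas1* at 654 and 630 CPM against 962 and 919 (−0.47 ± 0.05) and *Hif1a* at 202 and 200 against 181 and 171 (0.28 ± 0.07). *Tead4*, a partner of YAP1 and TAZ, stood at 47.8 and 50.3 CPM against 62.1 and 63.2 (−0.27 ± 0.08). Of 7 angiopoietin-like genes 2 were tested in ECs and 1 rose, *Angptl4*, which encodes an inhibitor of lipoprotein lipase, at 260 and 235 CPM against 188 and 198 (0.44 ± 0.07). It rose by 1.96 in mpECs and 1.37 in bmECs on the log2 scale, and was not called in aECs (0.15 ± 0.25) or alECs (0.12 ± 0.22). Its rise was not confined to ECs. *Angptl4* was also called higher in mural cells (1.33 ± 0.12) and BMSCs (0.64 ± 0.06), while no gene of this list was called in OBs.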

How the data were processed

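Stroma of 4 libraries was prepared with 10x 3' v3 chemistry after bead depletion of lineage-positive, CD45+ and CD117+ cells. The authors trimmed reads with cutadapt 3.5, aligned them with STARsolo 2.7.10a to mm39 (versions per the submitters' processing notes) and deposited unfiltered, unnormalized expected counts per gene and barcode, in which expectation maximization divides reads that match several genes, so a value need not be whole. Barcodes were kept at 1000 or more UMIs, 800 or more genes, under 15% mitochondrial and 5% haemoglobin counts, and a complexity above 0.8. Each cell was gated by the mean z-score of marker lists (score of at least 0.5, margin 0.25; subtypes 0.2 and 0.2) without the 6 genes. Cells near a gate's threshold made up 3.6% of mural cells, 4.93 to 9.02% of the EC subtypes, 15.5% of pericytes and 22.7% of adipogenic BMSCs. No cell annotation was used, so classes can differ from those of the study. Doublets were scored and left out only as an alternative.

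For each class and library with 10 or more cells, expected counts were added up and rounded. The quasi-likelihood test of edgeR 4.0.16 (R 4.3.3, TMM, filterByExpr) compared mutants with controls, with Benjamini-Hochberg adjustment over all genes tested in a class and calls at an adjusted p of at most 0.05. DESeq2 1.42.0, the study's tool, and the other settings of the closing section were alternatives. All errors beside log2 values are approximate standard errors, the size of the log2 value divided by the square root of the test's F. The 95% intervals of log2 fold changes use the degrees of freedom at which that ratio gives the test's p-value. Shares of cells were computed after thinning to 2000 UMIs, with exact Clopper-Pearson intervals at 95%, and intervals and floors of 3 counts cover counting error only. Free RNA was estimated from droplets of at most 100 UMIs and made up 3.35 to 9.48% of the counts of ECs, mural cells and BMSCs. The fits were tested on simulated data. The 6 genes and all lists were chosen with earlier results of these data known. The text names the 6 genes in every class, per list all genes called in ECs or the 6 with the largest change, the 5 genes most like each member among those of at least 10 CPM in 1 sum (1 of them, for *Angpt2*, is not reported here), markers that moved with a result, and *Lats2*. Scripts ran on Python 3.11.15 with scanpy 1.11.5 and scipy 1.17.1.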

Additional observations from a re-analysis of the deposited data

Results flagged for a closer look

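The effect of genotype on 4 of the genes differed between EC subtypes by the test of the difference itself. Each subtype was set against the mean of the other 3. *Tek* differed in aECs by 0.99 and in mpECs by −0.81 on the log2 scale, *Angpt2* in alECs by −3.12 (against a mean that includes the near-zero aECs, and by −3.0 with aECs left out), *Ptprb* in alECs by 0.53 and *Angpt1* in bmECs by 3.24. All but that of *Tek* in aECs lost the call when 1 library was left out, in the range given below. In mural cells the effect on *Angpt2* was higher in the pericyte gate than in the contractile gate by 1.54, and it ranged from 1.26 to 1.85 when any 1 library was dropped, while pericyte clusters from Leiden clustering gave no rise of *Angpt2*.

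Droplets too empty to hold a cell also held more *Angpt2* in mutants. They enter the comparisons only through the estimate of free RNA. The level was 62.4 and 71.2 CPM in mutants (mean 66.8) and 13.4 and 12.1 CPM in controls (mean 12.8). With the estimated free RNA subtracted, the log2 fold change of *Angpt2* was 4.09 in ECs and 1.84 in mural cells.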

How the results depend on the processing

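*Angpt2* kept its direction and its call in all ECs (log2 fold change 3.68 to 4.55), in mpECs (3.81 to 5.60) and in mural cells (1.76 to 1.99) under the 14 alternatives with a test. *Tek* kept both in all ECs (−0.86 to −0.74), in bmECs (−1.17 to −0.97) and in mpECs (−1.38 to −0.97), and *Tie1* in all ECs (−0.35 to −0.28). At the control subtype shares, which give no test, *Angpt2* was 3.52 in ECs and 1.05 in mural cells, *Tek* −0.89 and *Tie1* −0.43 in ECs. The count of calls in ECs was 5, and 3 with called doublets left out and 3 with a stricter gate. In BMSCs, their gates and OBs together it was 6, for genes with a mean of 10 CPM or more in either genotype. It was 3 with DESeq2, 3 with a filter on genes counted in 20% of cells and 2 with the stricter gate. CHOs and FBs were left out of this count. *Angpt1* in ECs was 0.16 with called doublets left out and −0.69 with the stricter gate (adjusted p = 0.151). *Ptprb* in ECs lost its call at −0.13 (DESeq2, no gene filter, the filter on UMIs and genes alone, stricter gate), −0.12 (doublets left out, free RNA subtracted) and −0.11 (Leiden clusters), and ranged from −0.16 to −0.11 without 1 library. *Angpt1* in mural cells lost its call at −0.51 (DESeq2), −0.37 (doublets left out) and −0.26 (Leiden clusters), with −0.71 to −0.29 without 1 library. *Tie1* in mural cells, which was not called, moved to −0.38 with 2000 UMIs and 10% mitochondrial counts as limits, −0.13 with doublets left out, −0.15 in Leiden clusters and −0.57 at the control subtype shares, and ranged from −0.36 to 0.60 without 1 library. *Ptprb* in mural cells moved to −0.45 with the same limits and to −0.92 in Leiden clusters (adjusted p = 0.029), with −0.13 to 0.31 without 1 library. *Angpt2* in the pericyte gate was −0.35 in Leiden clusters. The count of differences between EC subtypes was 5, and 2 to 5 without 1 library, and that between mural gates was 1, and 1 to 2. Where 1 library was left out, the lone library of its genotype was taken to vary like the others. For these changes the cause was not tested. The Leiden clusters held no adipogenic BMSC cluster and gave no value there. Sums over few cells, such as the 49 and 57 mutant bmECs, limit what can be seen of *Angpt1* and *Angpt4* in ECs.

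Replicate numbers are shared between genotypes in the labels, and the labels do not say whether a number marks a shared animal, batch or day. Deviations of equally numbered libraries from their group means correlated over genes at 0.0513 in ECs, −0.031 in mural cells and −0.0149 in BMSCs. With 2 libraries per genotype both pairs give the same value, so this is weak ground and does not exclude a pairing. The numbers were not taken to pair the libraries. With the replicate block the calls were 5 in ECs (5 without) and 11 in the EC subtypes (9). They were 6 in mural cells and their gates (5) and 6 in BMSCs, their gates and OBs (6). Calls gained were *Angpt2* in alECs (0.61), *Tek* in alECs (−0.45) and *Angpt1* in contractile cells (−0.63).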

Other observations

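Cells in the haematopoietic gates also held *Angpt1*. Of the cells in these gates, 188 of 420 in the progenitor gate, 117 of 247 in the megakaryocyte gate and 0 of 145 in the leukocyte gate fell in clusters of the same name. Cells gated by progenitor markers such as *Kit* and *Myb* stood at 208 and 233 CPM of *Angpt1* in mutants (91 and 89 cells) and at 522 and 458 CPM in controls (133 and 107 cells). Cells gated by megakaryocyte markers such as *Pf4* and *Itga2b* stood at 449 and 287 CPM in mutants (42 and 39 cells) and at 335 and 353 CPM in controls (96 and 70 cells), with overlapping groups. Cells of the leukocyte gate stood at 255 and 438 CPM (17 and 22 cells) against 438 and 323 CPM (54 and 52 cells). The summed BMSC markers in these gates were 409 to 810 CPM in mutant and 304 to 804 CPM in control progenitors, 391 to 596 against 2027 to 2090 in megakaryocyte-gated cells, and 314 to 2089 against 1904 to 3341 in leukocyte-gated cells, and their part in the values of *Angpt1* was not tested. Cells of the erythroid gate, at 22.6 and 19.6 CPM against 13.1 and 23.8, held little *Angpt1*. These gates were not compared by a test.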
